A study of Mus musculus with 4 samples.

Results

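The RNA levels of claudin-5 (Cldn5) and of 8 further tight junction genes were examined in whole mouse retina at postnatal day 10. The 9 genes were chosen by symbol, and each symbol was found on a row of its own among the 23278 genes of the table. They comprise the claudins Cldn5 and Cldn12, the MARVEL-domain proteins Ocln and Marveld2, the junctional adhesion molecules F11r and Jam2, and the cytoplasmic plaque proteins Tjp1, Cgn and Cgnl1. A total of 7 of the 9 reached a mean of 1 FPKM (fragments scaled by transcript length and by library) over the libraries and entered the counts below, together with all other genes of that level and a usable status, 13150 in all. Ocln and Marveld2 lay under that minimum and are given as values. The 1.5-fold threshold is applied to FPKM plus 0.5, which lowers the ratio of genes with few FPKM, whereas a value given in times is a ratio of the deposited FPKM.

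There were 4 genotypes with 1 library each. The stabilized NdpKO library, which the authors titled a rescue, was NdpKO;Ctnnb1flex3/+;Pdgfb-CreER. The NdpKO library was from mice with a knockout of Ndp, which encodes the secreted ligand Norrin, and with unmodified beta-catenin. The stabilized library was Ctnnb1flex3/+;Pdgfb-CreER with Ndp intact, and the WT library had none of these alleles. Ctnnb1flex3 yields a stabilized beta-catenin after recombination, and Pdgfb-CreER is a tamoxifen-activated recombinase driven by Pdgfb regulatory sequence, which is active in endothelial cells. How many endothelial cells had recombined is unstated in the labels. Mice of every genotype, WT included, were given 20 ug of 4HT, the active metabolite of tamoxifen, intraperitoneally at postnatal day 3, and all were of a mixed strain containing at least C57BL6 and 129. Each library came from RNA of 3 batches combined before library construction, with 4 to 8 retinas from 2 to 4 mice in a batch. A genotype therefore has no replicate, no difference below was tested, and "higher" and "lower" describe these libraries. As a check of the labels, Ndp was at 0.869 FPKM in the stabilized NdpKO library, 0.873 FPKM in NdpKO, 2.35 FPKM in stabilized and 2.98 FPKM in WT. Some signal on the gene thus remained in both knockout libraries (0.561 to 1.19 FPKM by the deposited interval in NdpKO), and which part of the transcript it comes from cannot be read from a value per gene.

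Tight junctions seal the space between neighbouring cells. Claudins form the paracellular strands, occludin and its relatives and the junctional adhesion molecules sit beside them in the membrane, and ZO-1 (Tjp1), cingulin (Cgn) and paracingulin (Cgnl1) tie them to the actin cytoskeleton from inside. Claudin-5 is the predominant claudin of endothelium in brain and retina, where it is part of the barrier between blood and neural tissue, and Norrin acts on that endothelium through the receptor Frizzled-4 and beta-catenin. Most of the other members are also made outside vessels, for example in the contacts between photoreceptors and Muller glia or in pigment epithelium.

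Cldn5 occupies chromosome 16, 18776847 to 18778262 on the plus strand of mm10, and has a single exon in its 1 GENCODE transcript. Cgnl1 lies on chromosome 9 (71626509 to 71771602, minus strand). These were the 2 of the 7 compared members past 1.5-fold on FPKM plus 0.5 in at least 1 comparison, and the 250 bases before each start, from RefSeq on GRCm38.p6, are shown for that reason. Capitals mark CCAAT or its complement ATTGG, and CAGGAA or its complement TTCCTG.
Cldn5 (chr16:18776597-18776846, plus strand): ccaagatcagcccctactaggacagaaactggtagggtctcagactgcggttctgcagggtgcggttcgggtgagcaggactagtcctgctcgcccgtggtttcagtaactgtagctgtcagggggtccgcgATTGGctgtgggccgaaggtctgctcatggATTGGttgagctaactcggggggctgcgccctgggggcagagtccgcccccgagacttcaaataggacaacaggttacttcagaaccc
Cgnl1 (chr9:71771603-71771852, minus strand): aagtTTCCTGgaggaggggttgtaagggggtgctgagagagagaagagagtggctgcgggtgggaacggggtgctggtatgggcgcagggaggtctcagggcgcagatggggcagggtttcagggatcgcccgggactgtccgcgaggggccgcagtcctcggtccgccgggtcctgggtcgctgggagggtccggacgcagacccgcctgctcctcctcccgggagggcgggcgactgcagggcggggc
Promoter sequence was found for 8 of the 9 members, the exception being Jam2. Both strands were searched for the TCF/LEF core CTTTGA, the SOX core AACAAT, the ETS-type sequence CAGGAA and the CCAAT box. The CCAAT box was added after the sequences had been read. Other forms of these sites were not searched for, so a window without these letters may still hold a site. Neither CTTTGA nor AACAAT occurred before the start of any of the 8 genes, while 13.8% and 9.42% of 32851 mouse promoter windows of that length contained them. CAGGAA occurred in 3 of the 8 (Cldn12, Marveld2 and Cgnl1), against 25.7% of all windows. The CCAAT box occurred in 5 of the 8 (Cldn5, Cldn12, Ocln, F11r and Cgn), against 33.8% of all windows, and in Cldn12 it shared a base with CAGGAA. Some genes had more than 1 start and so more than 1 window. A gene was counted if any of its windows held the sequence, whereas the shares are per window, so the 2 are not on the same footing. In Cldn12 both CAGGAA and the CCAAT box lay before other starts, and the window before the deposited start held neither.

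Cldn5 was measured at 16.7 FPKM in the stabilized NdpKO library (deposited interval 13.5 to 20.0), 0.675 FPKM in NdpKO (0.378 to 0.971), 19.4 FPKM in the stabilized library (15.8 to 23.1) and 6.91 FPKM in WT (5.18 to 8.63). The NdpKO library was the lowest by far, WT was intermediate, and both libraries with stabilized beta-catenin were high. Of the 6 possible pairs of libraries 5 had intervals apart, and the exception was the pair with stabilized beta-catenin. The interval extended 43.9% to either side of the value in NdpKO and 18.8% to 24.9% in the others. The deposited intervals, of unstated level, describe how well a single library fixes the value; the spread between animals is not part of them. Set among the 13150 genes, Cldn5 exceeded 63.0% of them in the stabilized NdpKO library, 0.837% in NdpKO, 68.4% in the stabilized library and 34.3% in WT. These genes were chosen for a mean of at least 1 FPKM, so any value under 1 FPKM ranks near their bottom. The share in NdpKO therefore does not place Cldn5 among all genes of the table.

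**Figure D1:**
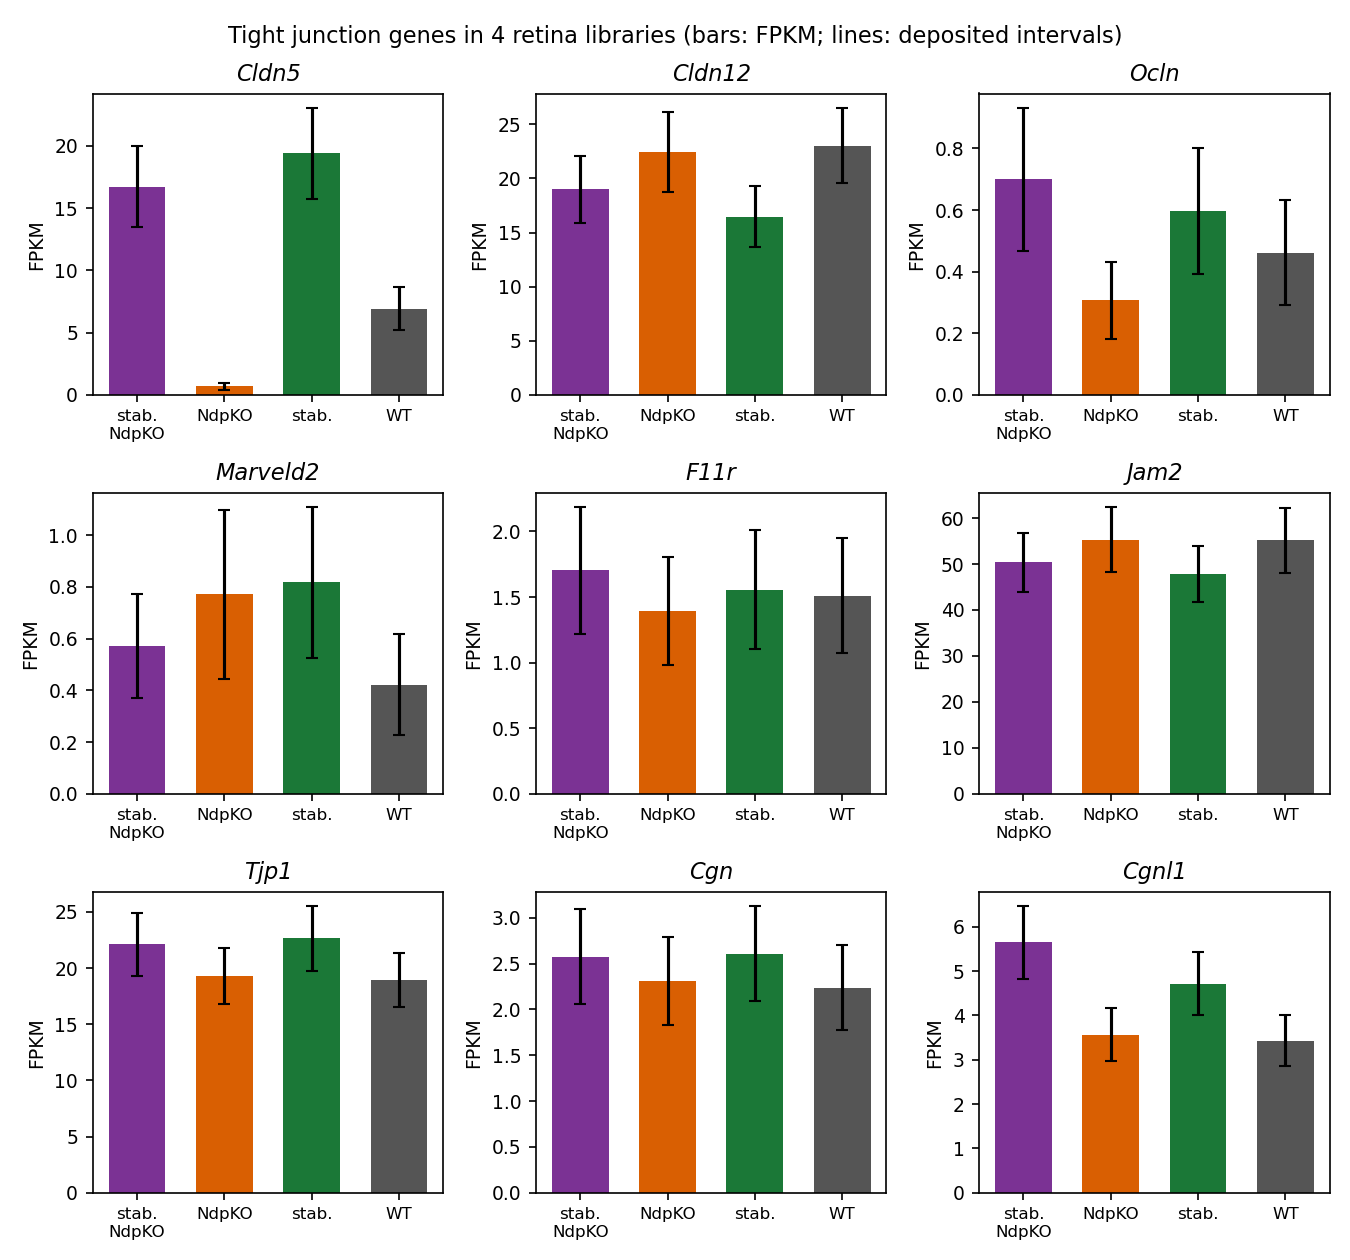
FPKM of the 9 tight junction genes in the 4 libraries, 1 library per bar, with the deposited interval as a line; stab. stands for stabilized, each panel has its own axis, and every axis starts at 0. Cldn5 is at 0.675 FPKM in NdpKO and between 6.91 and 19.4 FPKM elsewhere, whereas Jam2, Tjp1, Cgn and F11r have overlapping intervals throughout.

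Cldn5 was 10.2 times lower in NdpKO than in WT by the deposited values, a log2 ratio of -2.66 on FPKM plus 0.5 (-3.38 to -1.95 when the outer bounds of both intervals are set against each other). It was the 1 member at least 1.5-fold lower, a fold that 1.22% of all compared genes passed downward, and no member was 1.5-fold higher, against 0.966% of all. The remaining 6 compared members had log2 ratios between -0.09 (F11r) and 0.05 (Cgnl1). The median of the 7 was 0.00, beside -0.02 over all compared genes. Intervals were apart for 1 member, Cldn5, and for 0.76% of all compared genes. Among the 12906 compared genes other than short RNA genes, 6 had a lower ratio than Cldn5.

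In the stabilized library with Ndp intact the Cldn5 value was 2.81 times that of WT, a log2 ratio of 1.43 (0.83 to 2.05). Cldn5 was again the 1 member past 1.5-fold, upward, where 1.67% of compared genes were 1.5-fold higher and 1.71% lower. The member median was 0.18, beside -0.02 over all. Intervals were apart for 2 members, Cldn5 and Cldn12, and for 3.33% of all. Setting short RNA genes aside, 14 genes had a higher ratio. The comparisons of NdpKO and of the stabilized library share the WT library, so an error in WT would enter both.

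In the NdpKO background the stabilized library held 24.8 times as much Cldn5 as NdpKO, a log2 ratio of 3.87 (3.25 to 4.54), and 2 genes other than short RNA genes had a higher one. Cldn5 and Cgnl1 were the 2 members 1.5-fold higher, against 1.76% of compared genes, and no member was 1.5-fold lower, against 0.92%. The member median was 0.19 and that of all compared genes 0.03. Both members also had intervals apart, as did 1.75% of all, and 150 genes had a higher ratio than Cgnl1. Cgnl1 lay close to the threshold, and with a pseudocount of 1, or with ratios centred on the median of all genes, Cldn5 alone passed it.

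The log2 ratio of stabilization for Cldn5 was thus greater by 2.45 in the NdpKO background than with Ndp intact (1.20 to 3.71 from the outer bounds of the 4 intervals). Expressed as differences in FPKM, Cldn5 was 16.0 FPKM higher in the stabilized NdpKO library than in NdpKO. It was 12.5 FPKM higher in the stabilized library with Ndp intact than in WT. With 1 library for each combination the difference of 2.45 has no residual spread to be tested against. Ctnnb1flex3 and Pdgfb-CreER were present only together, so the part of each cannot be told apart.

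The stabilized NdpKO library had 2.42 times the Cldn5 of WT, a log2 ratio of 1.22 (0.62 to 1.85). Here too Cldn5 and Cgnl1 were the members past 1.5-fold upward, 2 of 7, against 1.79% of compared genes, and none was past it downward, against 1.07%. The member median was 0.17, beside 0.01 over all. Both had intervals apart, as did 2.48% of all, and 35 genes other than short RNA genes had a higher ratio than Cldn5, 137 a higher ratio than Cgnl1. Against the stabilized library with Ndp intact, Cldn5 in the stabilized NdpKO library was at 0.862 times the value, a log2 ratio of -0.21 (-0.75 to 0.33) with overlapping intervals. No member was 1.5-fold apart in that comparison, in which 0.981% of compared genes were 1.5-fold higher and 0.692% lower; the member median was 0.07, beside 0.04 over all. No compared member had intervals apart, against 0.525% of all.

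**Figure D2:**
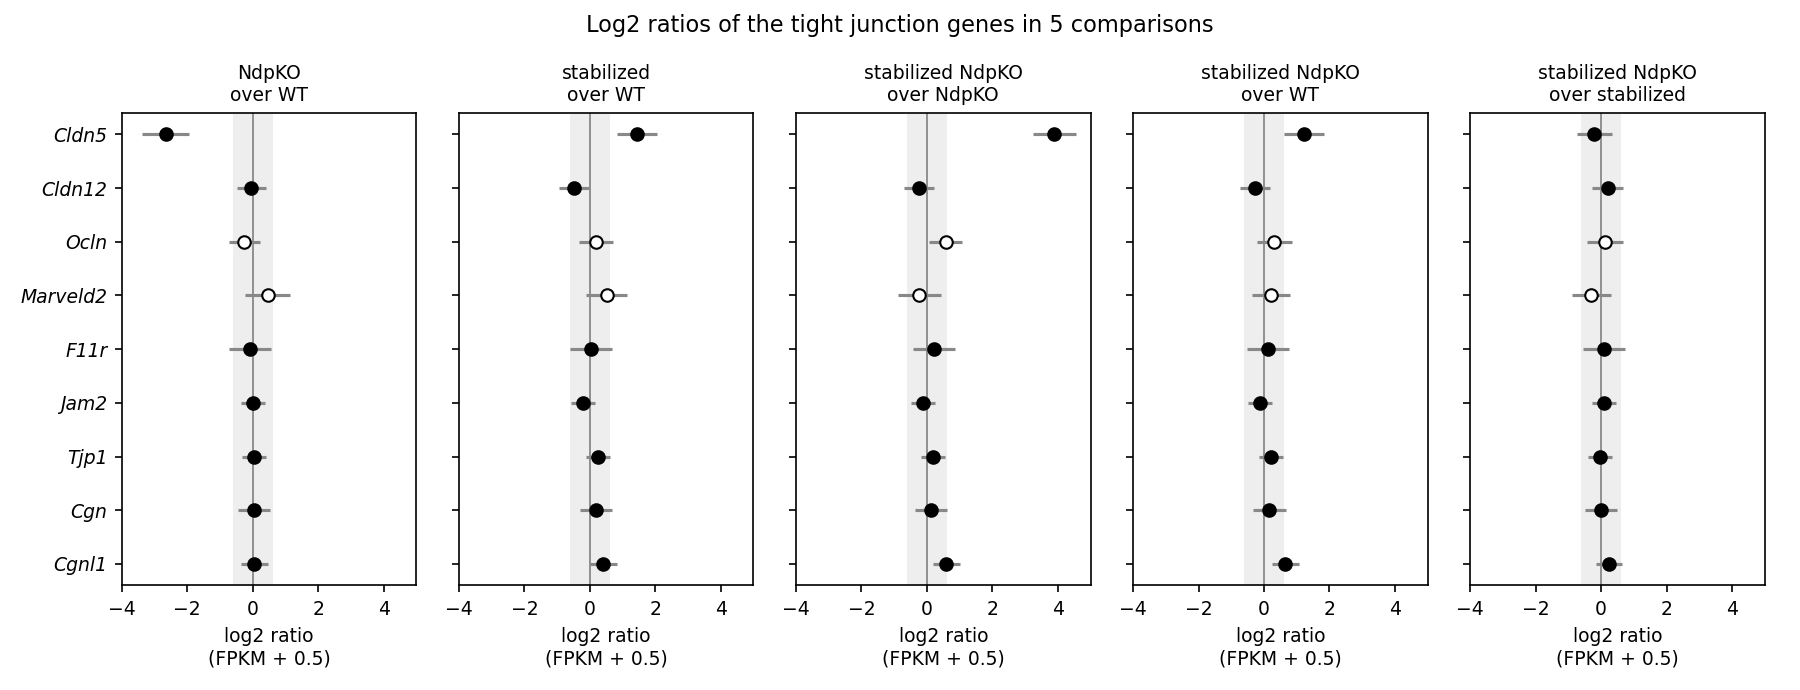
Log2 ratios of FPKM plus 0.5 for the 9 genes in 5 comparisons, with lines from the outer bounds of the deposited intervals; the grey band is less than 1.5-fold and open points are Ocln and Marveld2, whose mean is under 1 FPKM. Cldn5 stands at -2.66, 1.43, 3.87, 1.22 and -0.21 from left to right, and Cgnl1 is past the band at 0.60 in the third panel and 0.65 in the fourth.

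Cldn12 (chromosome 5, 5505015 to 5514976, minus strand), a claudin found in many tissues and the most abundant member of the family in WT, did not follow Cldn5. It was at 19.0 FPKM in the stabilized NdpKO library, 22.4 FPKM in NdpKO, 16.5 FPKM in stabilized and 23.0 FPKM in WT. Both stabilized libraries were lower than their counterparts, and the stabilized library (13.7 to 19.3) had its interval just apart from that of WT (19.6 to 26.5), at a log2 ratio of -0.47 that is short of 1.5-fold.

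A total of 23 claudins, Cldn5 and Cldn12 included, were in the table under symbols that still denote claudins. The 3 entries Cldn25, Cldn26 and Cldn27 carry older symbols of Cldnd1, Tmem114 and Tmem235 by their RefSeq synonyms and positions, and were left out of the ranking. Of the 23, 4 reached 1 FPKM in any library (Cldn12, Cldn5, Cldn7 and Cldn23), 15 stayed between 0 and 0.808 FPKM and 4 were listed at 0 in all libraries. Cldn5 ranked number 2 among them in the stabilized NdpKO library, 4 in NdpKO, 1 in the stabilized library and 2 in WT. Cldn7, an epithelial claudin, was at 4.00 FPKM in the stabilized NdpKO library, 4.95 FPKM in NdpKO, 4.20 FPKM in stabilized and 3.93 FPKM in WT, with overlapping intervals. The ratio of Cldn5 to Cldn7 was accordingly 4.18, 0.136, 4.62 and 1.76 in the same order of libraries. The ratio of Cldn5 to Cldn12 was 0.880, 0.0301, 1.18 and 0.300. Their levels in the stabilized library had overlapping intervals, so which of the 2 claudins was more abundant there is within the error of the estimates. The same holds in the stabilized NdpKO library (13.5 to 20.0 for Cldn5, 15.9 to 22.1 for Cldn12). In NdpKO the interval of Cldn5 (0.378 to 0.971) overlapped those of Cldn23 (0.566 to 1.25) and Cldn1 (0.316 to 0.685), among others, so its rank there is uncertain too.

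**Figure D3:**
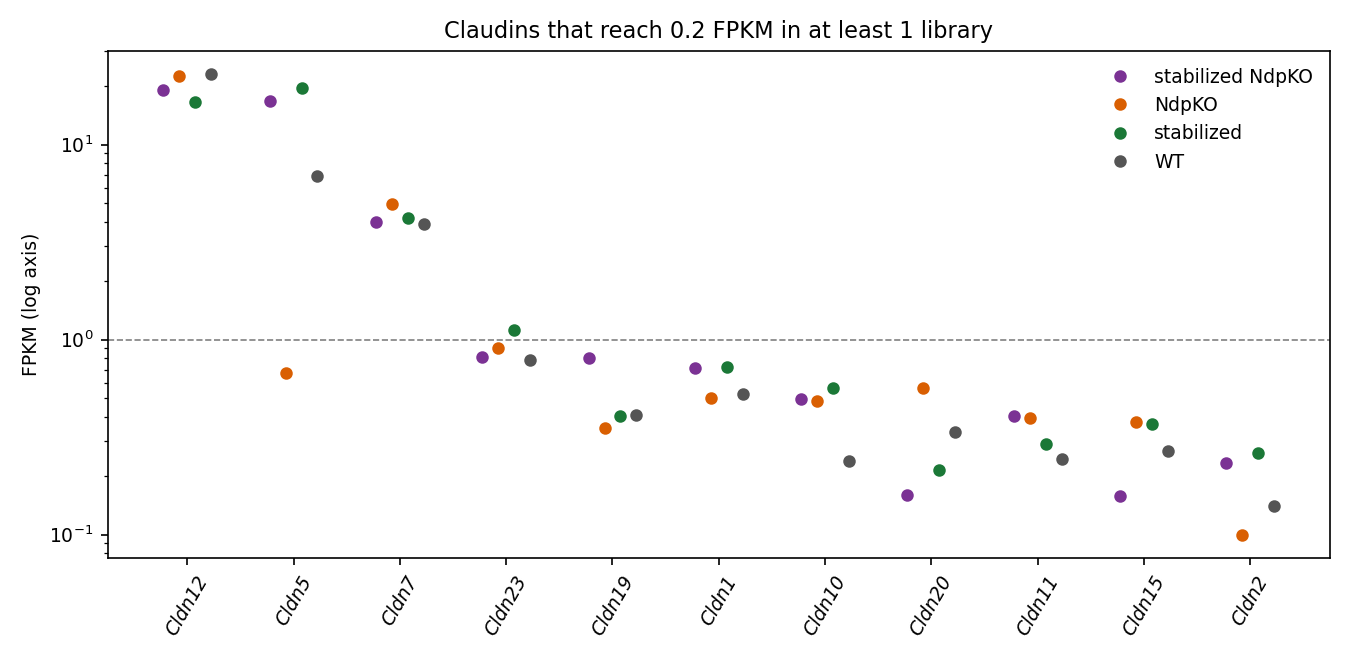
FPKM on a log axis of the claudins that reach 0.2 FPKM in at least 1 library, with a point per library and a dashed line at 1 FPKM. Cldn5 spans 0.675 to 19.4 FPKM, while Cldn12 and Cldn7 stay within 16.5 to 23.0 FPKM and 3.93 to 4.95 FPKM.

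Occludin and tricellulin (Marveld2, which concentrates where 3 cells meet) are related membrane proteins whose genes are neighbours on chromosome 13, 43458 bases apart (Ocln at 100497367 to 100552498, Marveld2 at 100595957 to 100616971, both on the minus strand). Ocln was at 0.699 FPKM in the stabilized NdpKO library (0.467 to 0.932), 0.307 FPKM in NdpKO (0.182 to 0.431), 0.596 FPKM in stabilized and 0.461 FPKM in WT. Its order over the libraries put NdpKO lowest and both stabilized libraries highest, with intervals apart for the stabilized NdpKO library and NdpKO (2.28 times) and overlapping for the other 5 pairs. Marveld2 was at 0.571 FPKM in the stabilized NdpKO library, 0.771 FPKM in NdpKO, 0.817 FPKM in stabilized and 0.422 FPKM in WT. All of its intervals overlapped. The intervals of both genes extended by 33.2% to 46.3% of the value, and even 1.94 times as much Marveld2 in the stabilized library as in WT came with overlapping intervals.

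The junctional adhesion molecules are immunoglobulin-like proteins that join opposing membranes and bind leukocyte integrins. Jam2 (JAM-B; chromosome 16, 84774123 to 84826375, plus strand) was the most abundant of the 9 genes, at 50.4 FPKM in the stabilized NdpKO library, 55.3 FPKM in NdpKO, 47.8 FPKM in stabilized and 55.2 FPKM in WT. F11r (chromosome 1, 171437561 to 171464593, plus strand), which encodes JAM-A, was at 1.70, 1.39, 1.56 and 1.51 FPKM in the same order. For both genes the intervals of all 6 pairs of libraries overlapped, and Jam2 exceeded F11r by 29.6 to 39.7 times. Esam, an endothelial relative outside the 9 genes, was at 6.49 FPKM in the stabilized NdpKO library, 3.39 FPKM in NdpKO, 5.48 FPKM in stabilized and 3.95 FPKM in WT. Its interval in the stabilized NdpKO library was apart from those of NdpKO and WT, at log2 ratios of 0.84 and 0.65.

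Among the plaque proteins, Tjp1 (chromosome 7, 65296165 to 65371244, minus strand) encodes ZO-1, the scaffold to which claudins bind. It was at 22.1 FPKM in the stabilized NdpKO library, 19.3 FPKM in NdpKO, 22.6 FPKM in stabilized and 18.9 FPKM in WT. Cingulin (Cgn; chromosome 3, 94760070 to 94786515, minus strand) was at 2.57, 2.31, 2.61 and 2.24 FPKM in that order. Tjp1 and Cgn each had their higher values in the libraries with stabilized beta-catenin, with overlapping intervals and log2 ratios of at most 0.25.

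Cgnl1, which encodes a protein of both tight and adherens junctions, differed from Cgn. It was at 5.65 FPKM in the stabilized NdpKO library (4.83 to 6.47), 3.57 FPKM in NdpKO (2.98 to 4.16), 4.72 FPKM in the stabilized library (4.00 to 5.44) and 3.43 FPKM in WT (2.86 to 4.00). NdpKO and WT lay together, and the libraries with stabilized beta-catenin above them. The intervals were apart between the stabilized NdpKO library and NdpKO (1.58 times) and between the stabilized NdpKO library and WT (1.65 times), and overlapped narrowly between the stabilized library and WT (1.38 times). Cgnl1 was 2.19 times as high as Cgn in the stabilized NdpKO library, 1.55 times in NdpKO, 1.81 times in the stabilized library and 1.53 times in WT.

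Taking the 9 genes as a sum, they held 119 FPKM in the stabilized NdpKO library, 106 FPKM in NdpKO, 117 FPKM in stabilized and 112 FPKM in WT. Cldn5 made up 14.0%, 0.636%, 16.6% and 6.16% of it in that order. For Marveld2, F11r, Jam2, Tjp1 and Cgn the intervals of all 6 pairs of libraries overlapped. The share of all compared genes for which this holds was not computed, and the intervals of Marveld2 are wide.

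Junction genes beyond the 9 were examined as lists, and the shares of all compared genes past 1.5-fold in each comparison are those given above. Of 8 compared membrane proteins (such as Esam, Cxadr, Lsr and the Crumbs proteins) Esam was the 1 gene past 1.5-fold, in the stabilized NdpKO library against NdpKO and against WT, with list medians of 0.07 and 0.14. None was past it in NdpKO against WT (median 0.00) or in the stabilized library against WT (median 0.06). In the second of these Lsr, the gene of the tricellular protein angulin-1, was at 2.78 FPKM against 1.80 FPKM, 1.54 times by the deposited values but a log2 ratio of 0.51 on FPKM plus 0.5, with overlapping intervals. Of 26 compared plaque and polarity proteins none was 1.5-fold apart in NdpKO against WT (median -0.03), and none in the stabilized NdpKO library against NdpKO (median 0.05). In the stabilized library against WT 1 was lower, Rab13, a small GTPase that takes part in junction assembly, at 2.85 FPKM (1.99 to 3.71) against 5.21 FPKM (3.83 to 6.60). The 13 compared adherens junction genes had medians of 0.06 in NdpKO against WT, 0.26 in the stabilized library against WT and 0.22 in the stabilized NdpKO library against NdpKO. Those past the threshold upward were none in the first, in which Cdh5 stood just under it at 0.57, Cdh5 (1.39) and Jup (0.61) in the second, and Cdh5 (0.90) in the third. In the stabilized NdpKO library against WT they were Cdh5 (1.47) and Jup (0.60), with a list median of 0.27. Jup encodes plakoglobin, a close relative of beta-catenin in junctions.

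**Figure D4:**
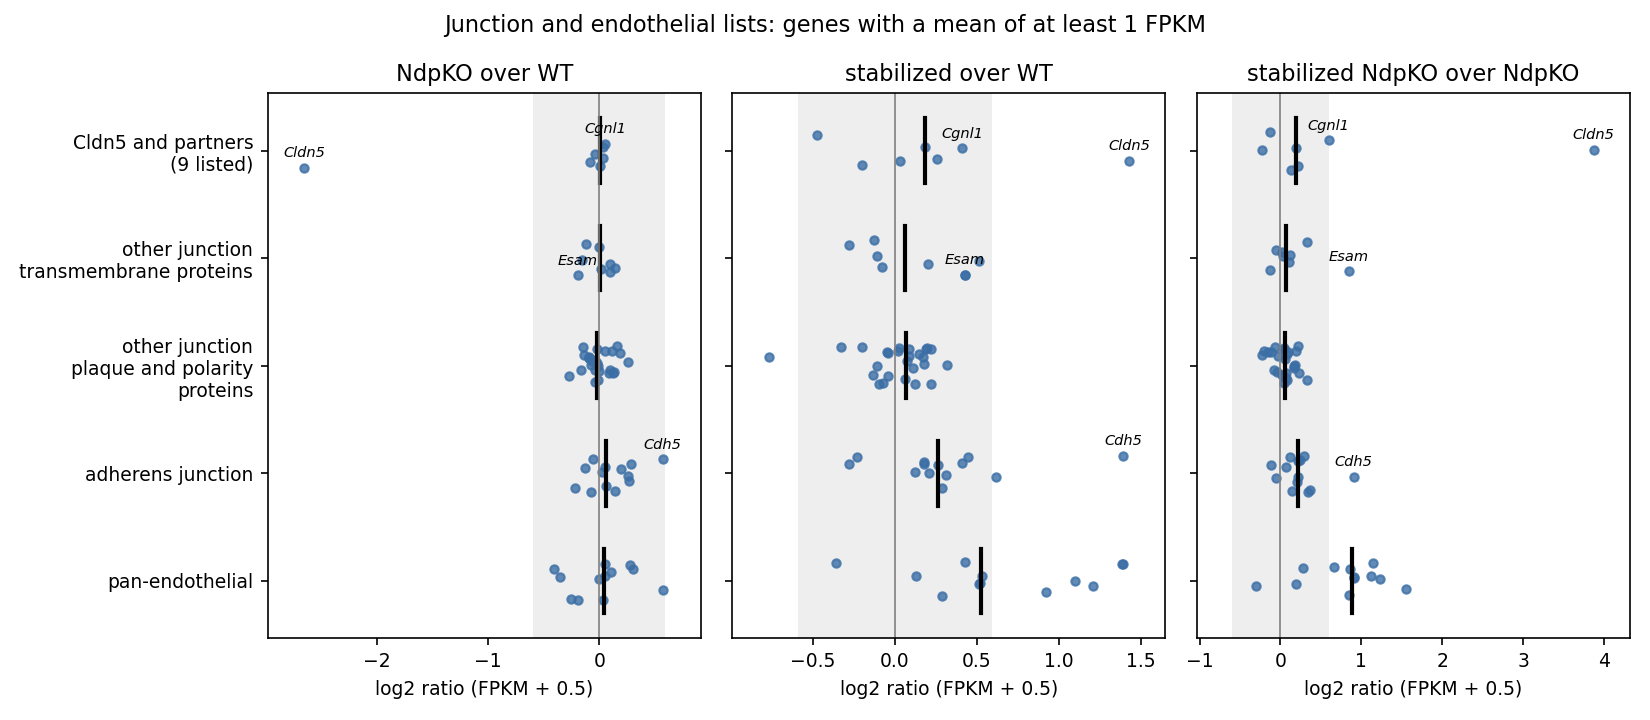
Log2 ratios of the compared genes of 5 lists in 3 comparisons, a point per gene, with a bar at the list median and a grey band for less than 1.5-fold; the horizontal scales differ between panels, Esam and Cdh5 also belong to the pan-endothelial list, and vertical scatter within a list has no meaning. The junction medians lie between -0.03 and 0.26, and the pan-endothelial medians are 0.04, 0.52 and 0.88 from left to right.

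The sum of genes shared by endothelial cells was higher in the libraries with stabilized beta-catenin along with Cldn5, though not every gene was. The 16 listed pan-endothelial genes summed to 95.6 FPKM in the stabilized NdpKO library, 64.7 FPKM in NdpKO, 93.2 FPKM in stabilized and 65.7 FPKM in WT. Of the 12 compared, 9 were 1.5-fold higher in the stabilized NdpKO library than in NdpKO, against 1.76% of all compared genes. In the stabilized library against WT 5 were higher, against 1.67% of all. None passed the threshold in NdpKO against WT (median 0.04), where Cdh5 came closest at a log2 ratio of 0.57, or 1.80 times by the deposited values with intervals apart. Tie1 and Icam2 were under 1 FPKM in NdpKO and WT. They reached the minimum mean through the stabilized libraries, which favours upward counts. Emcn, the gene of the endothelial sialomucin endomucin, ran the other way, at 1.41 FPKM in the stabilized NdpKO library, 1.85 FPKM in NdpKO, 1.21 FPKM in stabilized and 1.69 FPKM in WT, with overlapping intervals. In whole-retina RNA, fewer cells of a type and less RNA per cell cannot be told apart. Cldn5 per summed pan-endothelial FPKM was 0.175 in the stabilized NdpKO library, 0.0104 in NdpKO, 0.208 in the stabilized library and 0.105 in WT. Kdr accounted for a large part of that sum, and without it the values were 0.335, 0.0272, 0.426 and 0.259. Per Pecam1, the gene of the endothelial adhesion protein CD31, Cldn5 was at 4.10, 0.334, 4.72 and 3.57. Per Cdh5, the gene of VE-cadherin, it was at 5.61, 0.496, 6.96 and 9.15.

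NdpKO was the lowest library in each of these ratios, at 0.0542 to 0.105 times WT. The excess of both stabilized libraries over WT depended on the gene chosen: Cldn5 per endothelial gene in the stabilized library was 1.98 times that of WT with the whole list, 1.65 times without Kdr, 1.32 times with Pecam1 and 0.761 times with Cdh5. Cdh5 itself was at 2.98 FPKM in the stabilized NdpKO library, 1.36 FPKM in NdpKO, 2.79 FPKM in stabilized and 0.754 FPKM in WT, and was thus higher in NdpKO than in WT, with intervals apart.

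Markers of other cells were set beside these values. The 8 mural cell genes summed to 33.3 FPKM in the stabilized NdpKO library, 13.9 FPKM in NdpKO, 35.2 FPKM in stabilized and 21.6 FPKM in WT. Of the 5 compared, 4 were 1.5-fold higher in the stabilized NdpKO library than in NdpKO, against 1.76% of all compared genes. In the stabilized library against WT 4 were higher, against 1.67% of all. In NdpKO against WT 1, Rgs5, was lower, against 1.22% of all. Abcc9, Acta2 and Notch3 were under 1 FPKM in NdpKO and WT and reached the minimum mean through the stabilized libraries, which favours upward counts. The 6 erythroid genes in the table summed to 176, 75.6, 164 and 69.8 FPKM in that order, and both sums were high in the libraries in which Cldn5 was highest. Of the 4 compared erythroid genes, 3 were 1.5-fold higher in the stabilized NdpKO library than in NdpKO (1.76% of all) and 4 in the stabilized library than in WT (1.67% of all). In NdpKO against WT 1 was higher (0.966% of all) and 2 were lower (1.22% of all). The 10 pigment epithelium genes, which mark an adjoining tissue rich in tight junctions, summed to 48.3, 59.7, 66.9 and 54.2 FPKM. Of these, 3 of 6 compared were 1.5-fold higher in the stabilized library than in WT, against 1.67% of all compared genes. The 7 genes of ocular surface epithelium stayed below 1 FPKM in every library, and none entered the comparisons. The 8 retina genes all passed the minimum mean and summed to 2974 FPKM in the stabilized NdpKO library, 3340 FPKM in NdpKO, 2782 FPKM in stabilized and 2852 FPKM in WT. Of these, Gnat1 and Pou4f1 alone were past 1.5-fold. Gnat1, the rod transducin gene, was at 212.7, 400.8, 214.7 and 239.4 FPKM in that order. It was 1.5-fold higher in NdpKO than in WT, as were 0.966% of all compared genes. In the stabilized NdpKO library it was 1.5-fold lower than in NdpKO, as were 0.92% of all. Pou4f1, a ganglion cell transcription factor gene, was 1.5-fold higher in stabilized than in WT (12.7 against 8.12 FPKM), as were 1.67% of all. Gnat1 in NdpKO had its interval apart from those of the stabilized NdpKO and WT libraries, and Pou4f1 had intervals apart in the comparison named. Xist was at 1.28 and 1.25 FPKM in the stabilized NdpKO and NdpKO libraries, against 130 and 135 FPKM in the stabilized and WT libraries, so sex and Ndp genotype cannot be told apart. Read totals were not analysed here, and summed FPKM ranged from 405525 to 427109. The part of these markers in the junction values was not tested.

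The genes flanking Cldn5 did not share its pattern. Cdc45, a replication gene 2184 bases downstream, was at 1.53 FPKM in the stabilized NdpKO library, 1.18 FPKM in NdpKO, 0.850 FPKM in stabilized and 1.19 FPKM in WT. Ufd1l, which follows it, was at 34.2, 32.1, 36.3 and 33.2 FPKM. The nearest compared genes on the other side, Gp1bb and Sept5, lie 146908 bases away, share a deposited locus and are uncertain as separate values. Over these 4 genes and the 5 comparisons log2 ratios lay between -0.32 and 0.59, both extremes being those of Cdc45. The 0.59 was in the stabilized NdpKO library against the stabilized library. It was just past 1.5-fold, as were 0.981% of all compared genes upward. These neighbours were chosen by position after the values of Cldn5 had been seen.

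The genes whose pattern over the 4 libraries was most like that of Cldn5 were found by the distance between log2 values after the mean of each gene had been subtracted. Short RNA genes were left out of this ranking. The 8 nearest, from the nearest on, were Hba-a2, Snhg9, Slco1c1, Spp1, Serpina3h, Mfsd2a, Eltd1 and AU021092, at distances of 0.83 to 1.75. Slco1c1, a thyroid hormone transporter of the brain and retina barriers, was at 2.32 FPKM in the stabilized NdpKO library, 0.0206 FPKM in NdpKO, 3.63 FPKM in stabilized and 0.396 FPKM in WT. Mfsd2a, a lipid transporter of the same endothelium, was at 4.86, 0.545, 3.80 and 1.20 FPKM. Eltd1, an adhesion receptor of endothelial cells, was at 3.72, 0.532, 3.79 and 1.36 FPKM. All 8 genes had NdpKO lowest, WT next and both stabilized libraries highest, an order that their selection for likeness favours. Slco1c1 and Serpina3h were under 1 FPKM in NdpKO and WT. They reached the minimum mean through the stabilized libraries, which also favours that order. Hba-a2, an alpha-globin gene with a near-identical copy, was at 13.5, 0.00073, 17.1 and 3.79 FPKM and is uncertain. Cldn5 itself ranged over 4.08 on the log2 scale.

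The 8 patterns nearest to that of Cgnl1 were those of Ppic, Pcolce, Tspan18, Tfap2e, Grrp1, Vit, Tmem26 and Msn, at distances of 0.04 to 0.10. Ppic, a cyclophilin gene, was at 11.4 FPKM in the stabilized NdpKO library, 7.21 FPKM in NdpKO, 9.65 FPKM in stabilized and 7.21 FPKM in WT. Msn, the gene of the membrane-cytoskeleton linker moesin, was at 10.9, 7.44, 9.63 and 7.54 FPKM. Pcolce was under 1 FPKM in NdpKO and WT and reached the minimum mean through the stabilized libraries. Cgnl1 itself ranged over 0.65, and likeness over 4 libraries is a description.

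**Figure D5:**
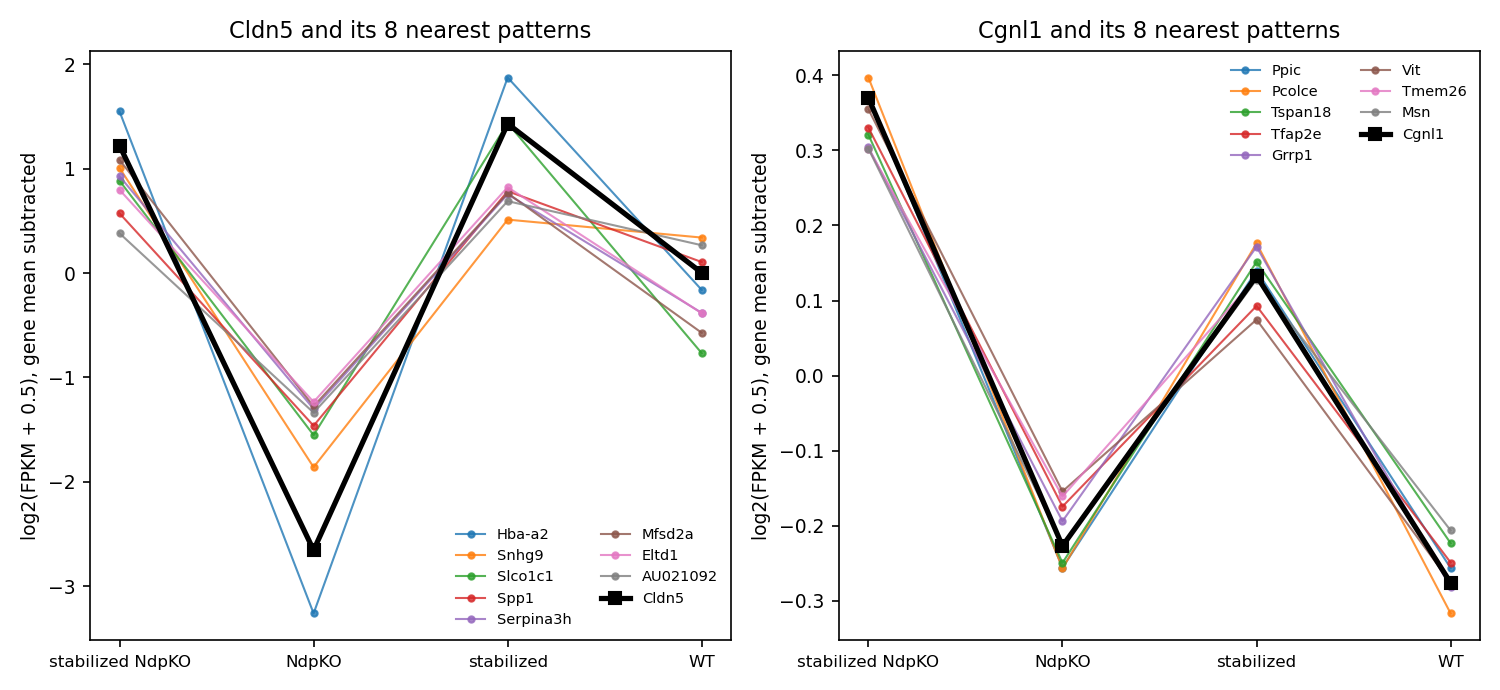
Log2 of FPKM plus 0.5 with the mean of each gene subtracted, for Cldn5 (left) and Cgnl1 (right) in black and the 8 genes nearest to each in colour; lines join the 4 libraries of a gene and imply no order, and the vertical scales differ. Cldn5 covers 4.08 log2 units and Cgnl1 0.65.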

How the data were processed

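Whole-retina RNA of 4 genotypes was measured with 1 pooled library each. The authors deposited a table with an FPKM value, the bounds of its interval and a status for every gene and library. Per the submitters' processing notes, TopHat, Cuffdiff and the mm10 build were used; for versions, annotation, strandedness, read totals and interval level there is no entry in the labels. The FPKM are relative within a library.

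Columns were assigned by the sample number in their name. Log2 ratios were computed on FPKM plus 0.5 for 13150 genes with a mean of at least 1 FPKM and status OK in each library, 244 of them short RNA genes; 145 genes had another status. Without replicates no test was run, and genes at least 1.5-fold apart were counted. The share of all compared genes past that fold stands beside each member count. Ranges of a ratio set the lower bound of a library against the upper bound of the other.

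The 9 genes and all lists were chosen with earlier results of these data known. The rule named the 9 genes, up to 4 list members of largest ratio, junction list members past 1.5-fold, Pecam1, Cdh5, Pdgfb and Ndp, and the 8 patterns most like Cldn5 and Cgnl1. Kdr, Xist, Cldn23 and the flanking genes were chosen after their values were seen. Exon counts came from GENCODE M21 and promoters from RefSeq, both on the assembly of mm10. Settings tried were a pseudocount of 0.1 or 1, no minimum mean or one of 0.5 or 5 FPKM, centring on the median, scaling to equal totals, 2-fold, intervals apart, and other denominators for Cldn5. Python 3.11.15, numpy 2.4.6, pandas 2.3.3 and matplotlib 3.10.9 were used.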

Additional observations from a re-analysis of the deposited data

How the results depend on the processing

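The log2 ratios of the 9 genes in 5 comparisons (45 in all) were recomputed with pseudocounts of 0.1 and 1, centred on the median and scaled to equal totals. All 180 recomputed ratios lay within the range that the deposited bounds give, which is wide because outer bounds are set against each other. Scaling to equal totals raised all values while the pseudocount stayed at 0.5, so it also lowered the weight of the pseudocount. Under it Cldn5 in NdpKO against WT went from -2.66 to -2.99. Of 45 recomputed counts of members past 1.5-fold, 39 equalled the reported one. The count in the stabilized NdpKO library against NdpKO went to 1 in place of 2 with a pseudocount of 1, a minimum of 5 FPKM, centring on the median or a 2-fold threshold. The count against WT went to 1 in place of 2 with a minimum of 5 FPKM or a 2-fold threshold. Cldn5 is the gene left in each case. A minimum of 5 FPKM removes Cgnl1 by construction, and its log2 ratio over NdpKO was 0.54 with a pseudocount of 1 and 0.56 after centring. The difference between the stabilization ratios of Cldn5 was 2.96 with a pseudocount of 0.1 and 2.04 with 1. With Cdh5 as the denominator the fold of Cldn5 over WT was 0.761, in place of 1.98 with the list, in the stabilized library and 0.613, in place of 1.66, in the stabilized NdpKO library; the cause was not tested. No paired analysis was possible because each genotype has 1 library, and for the same reason no replicate could be left out. Below about 1 FPKM the deposited intervals are wide, which limits Ocln, Marveld2 and Cldn5 in NdpKO.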
